A study of Mus musculus with 12 samples.

Results

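The 5 genes Actr1a, Fmo2, Prg4, Ptpn12 and Map3k4 were picked because dietary selenium (Se) went with a change of their RNA in one tissue, liver or lung, that was absent or opposite in the other tissue. Every probe set of the array that stood for a single one of these genes was then taken, which gave 16 of the 29409 probe sets of the table and 5 of its 13710 single genes. Of these 16 probe sets, 15 had a value on at least 1 array, 14 could be fitted in liver, 14 in lung and 13 in both tissues together. The diet differences in liver and lung chose the genes, so they are given below as a description with a standard error and without a test. The difference between lung and liver, averaged over both diets, was not used for the choice and was tested.

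The samples were whole lung and whole liver from wild-type males of the inbred mouse strain FVB/N, taken after 6 weeks on a Se-deficient diet with 0 ppm Se added (0 Se) or with 0.1 ppm Se added (0.1 Se), so both groups had eaten the same low-selenium base. Per the methods the Se was sodium selenite, the base was torula yeast, and the diets began at weaning, at 3 weeks of age. Total RNA was hybridized to 12 Affymetrix mouse expression arrays, with 3 biological replicates in each of the 4 groups. The methods speak of 3 mice per diet for both tissues, and the labels do not tie a liver array to a lung array of the same mouse. Values are log2 MAS5 signals, where a difference of 1 is a doubling, and the table leaves a cell blank where a transcript was called absent or its signal lay under 100. In such whole tissue, fewer cells of a type and less RNA per cell cannot be told apart. The labelled tissues had their defining markers: 7 of 7 hepatocyte markers were listed on the 6 liver arrays, and 6 of them were blank on the 6 lung arrays. The 6 ciliated cell markers were the reverse, listed on the 6 lung arrays and blank on the 6 liver arrays. Markers of other lung cells were less separate, as Abca3, Hopx and Cyp2f2 were also listed on the 6 liver arrays.

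Selenium acts in mammals mainly through selenoproteins, and none of the 5 genes encodes one. Their products work in different compartments. Actr1a encodes the actin-related protein that forms the short filament of dynactin, the cofactor of the motor dynein, and Fmo2 encodes a flavin-containing monooxygenase, an NADPH-dependent enzyme of foreign compounds that is known from lung. Prg4 encodes lubricin, a secreted mucin-like glycoprotein that lubricates joints and is also made by liver. Ptpn12 encodes PTP-PEST, a tyrosine phosphatase of focal adhesion proteins, and Map3k4 encodes MEKK4, a kinase that is switched on by Gadd45 proteins and feeds into the p38 and JNK pathways.

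The DNA upstream of the starts of 3 of these genes is printed so that the genes can be set side by side at the sequence level. The arrays measured RNA, not binding, at these sites. The sequences are RefSeq windows on build GRCm38.p6, each from the minus strand and written 5′ to 3′ toward the transcription start, with short motif matches in capitals. They are chr19:46395742-46395991 for Actr1a (250 bases), chr1:162898759-162899008 for Fmo2 (250 bases, the outermost of 2 annotated starts) and chr17:12318797-12318910 for Map3k4 (114 bases).
Actr1a: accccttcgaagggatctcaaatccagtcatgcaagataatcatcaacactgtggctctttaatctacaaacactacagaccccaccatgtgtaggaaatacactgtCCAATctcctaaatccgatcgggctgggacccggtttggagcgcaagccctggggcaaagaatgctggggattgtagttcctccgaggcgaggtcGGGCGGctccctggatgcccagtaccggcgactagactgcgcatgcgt
Fmo2: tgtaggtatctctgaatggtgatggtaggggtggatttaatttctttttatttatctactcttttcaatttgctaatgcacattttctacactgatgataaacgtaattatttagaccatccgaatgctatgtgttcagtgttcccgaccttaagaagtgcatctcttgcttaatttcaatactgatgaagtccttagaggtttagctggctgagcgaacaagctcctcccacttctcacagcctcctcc
Map3k4: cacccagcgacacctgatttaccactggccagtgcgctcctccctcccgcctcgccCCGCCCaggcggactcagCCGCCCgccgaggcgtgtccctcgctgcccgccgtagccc
On both strands, 6 motifs were searched. The Actr1a window held the CCAAT box (CCAAT, or ATTGG on the other strand) and the GC box (GGGCGG, or CCGCCC on the other strand), and the Map3k4 window held the GC box 2 times as CCGCCC. The Fmo2 window held 0 matches. Among all 32851 windows of the table, 33.8% held the CCAAT box and 32.7% the GC box. These shares and those below were taken over the first 250 bases of each window, so they do not match the 114 bases of Map3k4 in length. The other motifs were matched in none of these 3 windows: the TATA box TATAAA (12.4% of all windows), the E-box CACGTG (6.02%), the antioxidant response element TGACNNNGC (10.2%) and the palindromic gamma-activated sequence TTCNNNGAA (7.02%). A match describes the letters only, and a motif without a match was merely not spelled in that window.

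Actr1a signal was lower on the 0.1 Se diet in liver and nearly level in lung. In 0 Se liver its probe set 1415873_a_at read 10.22, 10.25 and 10.35, and in 0.1 Se liver 9.51, 9.41 and 9.53. The diets did not overlap in liver, and the lowest 0 Se array lay well above the highest 0.1 Se array. In 0 Se lung the signal was 10.14, 10.20 and 10.23, and in 0.1 Se lung it was 10.25, 10.33 and 10.09. These lung arrays overlapped between diets, and 3 of the 6 lay somewhat below the lowest 0 Se liver array. The 3 arrays of 0.1 Se liver were below every array of the other groups. The group means were 10.27 ± 0.07 (SD, n = 3) in 0 Se liver, 9.48 ± 0.07 in 0.1 Se liver, 10.19 ± 0.04 in 0 Se lung and 10.22 ± 0.12 in 0.1 Se lung. The liver difference was -0.79 ± 0.12 (SE), a 1.73-fold lower signal, and 90 of the 16575 probe sets fitted in liver had a larger absolute difference. The lung difference was 0.03 ± 0.10. The second Actr1a probe set, 1459855_x_at, was blank on the 12 arrays, so the liver difference rests on 1 probe set.

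**Figure D1:**
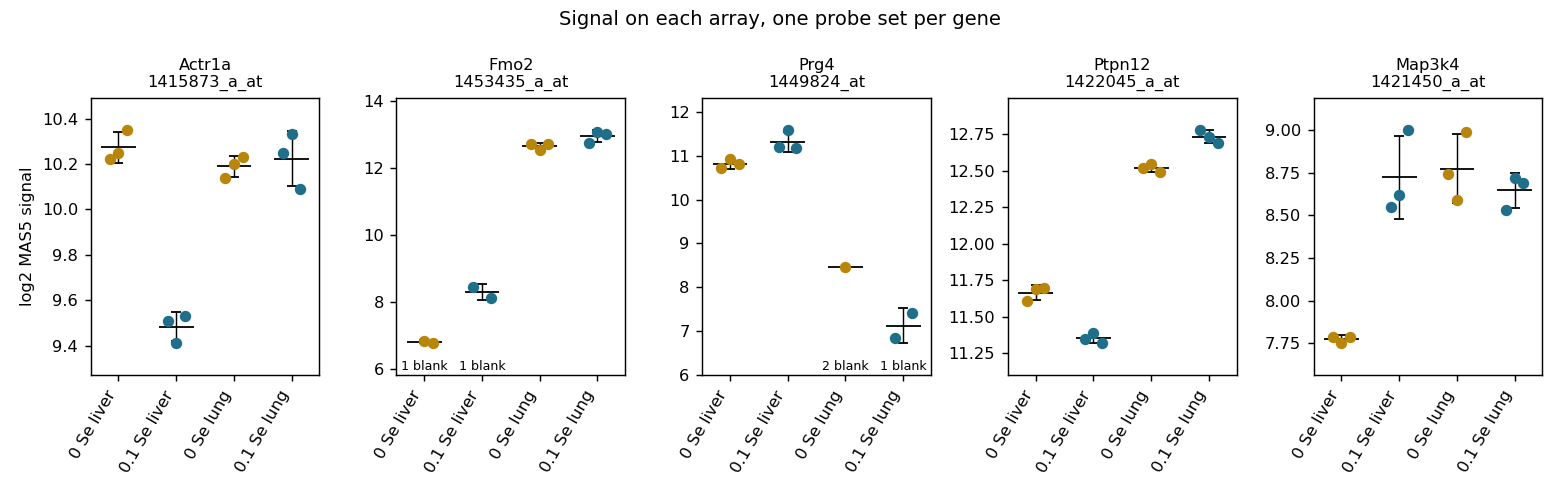
Log2 MAS5 signal of 1 probe set per gene (vertical axis) on each array of the 4 groups (horizontal axis). Points are arrays, lines are group means and bars are the SD where at least 2 arrays were listed. The low group was 0.1 Se liver for Actr1a (9.41 to 9.53) and 0 Se liver for Map3k4 (7.75 to 7.79), and "blank" counts the arrays with no listed value.

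Map3k4 had the mirror image of this pattern on a single probe set. With 1421450_a_at, 0 Se liver read 7.79, 7.75 and 7.79, and 0.1 Se liver read 8.55, 8.62 and 9.00. No array overlapped between the diets in liver, and 0 Se liver was tight. In 0 Se lung the signal was 8.74, 8.59 and 8.99, and in 0.1 Se lung 8.53, 8.72 and 8.69. The lung arrays overlapped with each other and with 0.1 Se liver, so 0 Se liver was the only group apart. The liver difference was 0.95 ± 0.18 (SE, n = 3 per diet), a 1.93-fold higher signal on 0.1 Se, and 36 of 16575 probe sets had a larger absolute one. The lung difference was -0.13 ± 0.15.

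The other 3 Map3k4 probe sets did not show the liver difference. The probe set 1450253_a_at was designed on the same source sequence as 1421450_a_at, yet it read 7.65, 7.61 and 7.41 in 0 Se liver and 7.64, 7.42 and 7.83 in 0.1 Se liver. Its diets overlapped, and its liver difference was 0.07 ± 0.19 (SE). The highest signals came from 1459800_s_at, at 9.44, 9.51 and 9.18 in 0 Se liver and 9.37, 9.48 and 9.01 in 0.1 Se liver, a difference of -0.09 ± 0.17. The fourth, 1447667_x_at, had a liver difference of 0.00 ± 0.22 but did not overlap between the diets in lung, where it read 8.03, 7.92 and 7.87 on 0 Se and 8.22, 8.32 and 8.23 on 0.1 Se. Its lung difference was 0.32 ± 0.14, the opposite sign to that of 1421450_a_at in the same tissue. Across the 6 liver arrays, the correlation of 1421450_a_at with the other 3 probe sets was 0.41 (1450253_a_at), 0.23 (1447667_x_at) and -0.45 (1459800_s_at), whereas 1447667_x_at and 1450253_a_at had r = 0.82 with each other. Arrays of both diets enter these correlations, and the probe sets share each array's RNA and scaling. The suffixes _x_at and _s_at mark probes that may cross-hybridize, which leaves the identity of those signals less certain.

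Ptpn12 moved in opposite directions in the 2 tissues and did so on several probe sets. With 1422045_a_at, 0 Se liver read 11.61, 11.69 and 11.70, and 0.1 Se liver read 11.35, 11.39 and 11.32. In lung the order of the diets turned, with 12.52, 12.55 and 12.49 on 0 Se and 12.78, 12.73 and 12.69 on 0.1 Se. Neither tissue had overlapping diets, and the 4 groups followed each other as 4 separate steps from 0.1 Se liver up to 0.1 Se lung. The differences were small against those of Actr1a and Map3k4, at -0.31 ± 0.09 (SE) in liver and 0.21 ± 0.08 in lung. In liver 2211 of 16575 probe sets had a larger absolute difference, and in lung 4851 of 21655.

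The probe set 1455105_at, designed on another source sequence, did not overlap in either tissue. It read 10.44, 10.65 and 10.41 in 0 Se liver against 10.23, 10.36 and 10.08 in 0.1 Se liver. In lung it read 12.13, 12 and 12.12 against 12.22, 12.20 and 12.20. The differences were -0.28 ± 0.12 (SE) in liver and 0.12 ± 0.08 in lung, again lower in liver and higher in lung on 0.1 Se. The remaining probe sets, 1450478_a_at and 1450479_x_at, shared their source sequence with 1422045_a_at and overlapped between diets in both tissues. Their liver differences were -0.35 ± 0.23 and -0.10 ± 0.14, and their lung differences 0.04 ± 0.12 and 0.09 ± 0.20. All 4 Ptpn12 probe sets were thus below 0 in liver and above 0 in lung, although 3 of them come from 1 source sequence and are not independent. Of these, 1450479_x_at may also cross-hybridize. Leaving out 1 array turned the lung sign of 1450478_a_at (-0.07 without 0 Se lung replicate 3) and of 1450479_x_at (-0.10 without 0 Se lung replicate 2, -0.14 without 0.1 Se lung replicate 1). The pair that did not overlap tracked each other across arrays, with r = 0.83 over the 6 liver arrays and 0.74 over the 6 lung arrays, arrays of both diets being pooled.

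**Figure D2:**
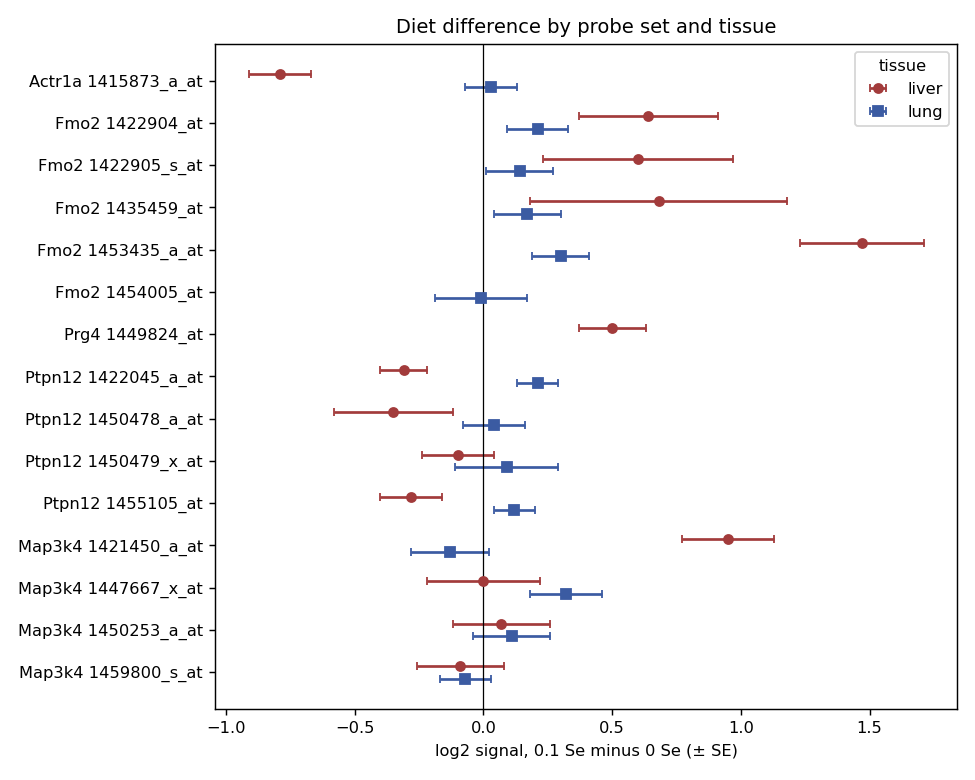
Difference of the log2 signal between diets (horizontal axis, 0.1 Se minus 0 Se) for each fitted probe set (vertical axis), in liver (circles) and lung (squares). Bars are the SE of the limma fit. The 4 Ptpn12 probe sets lie below 0 in liver (-0.35 to -0.10) and above 0 in lung (0.04 to 0.21), while for Map3k4 only 1421450_a_at is far from 0 in liver (0.95).

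Fmo2 was far higher in lung than in liver on both diets, and its diet difference was larger in liver, where its signal was low. In lung, 1453435_a_at read 12.71, 12.53 and 12.71 on 0 Se and 12.74, 13.08 and 13.02 on 0.1 Se, a difference of 0.30 ± 0.11 (SE) between diets that did not overlap. In liver it was listed on 4 of 6 arrays, at 6.85 and 6.78 on 0 Se and at 8.46 and 8.12 on 0.1 Se, with 1 blank array per diet. The listed liver arrays did not overlap, and the difference was 1.47 ± 0.24 (SE, n = 2 per diet), a 2.78-fold higher signal. Only 6 of 16575 probe sets had a larger absolute difference in liver, but with the blanks set to the lowest value of the table, 6.64, it was 0.98 ± 0.46.

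The other Fmo2 probe sets listed in liver had smaller differences of the same sign. With 1422904_at, 0 Se liver read 7.88, 8.02 and 7.72, and 0.1 Se liver read 9.20, 8.10 and 8.25, a difference of 0.64 ± 0.27 (SE). The diets did not overlap, yet 0.1 Se liver replicate 1 carried much of the gap, and without that array the difference was 0.30 ± 0.20. With 1435459_at the diets overlapped, at 6.79, 8.13 and 7.27 on 0 Se and 9.16, 6.94 and 8.13 on 0.1 Se, a difference of 0.68 ± 0.50 that was 0.14 ± 0.43 without the same array. With 1422905_s_at they overlapped too, at 7.77, 8.66 and 8.16 against 9.59, 7.94 and 8.86, a difference of 0.60 ± 0.37 that was 0.21 ± 0.32 without it. This array had the highest Fmo2 signal in liver on each of these 4 probe sets. It was also the only liver array that listed the alveolar type 2 cell marker Sftpc, at 6.96 against 14.80 to 15.83 in lung, while Sftpb, Scgb1a1, Ager and the 6 ciliated cell markers were blank on the 6 liver arrays. The part of this signal in the Fmo2 difference was not tested.

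In lung these 3 probe sets had differences of 0.14 to 0.21 with overlapping diets. The fifth Fmo2 probe set, 1454005_at, was blank on the 6 liver arrays. In lung it read 7.67, 7.27 and 7.23 on 0 Se and 7.15, 7.41 and 7.56 on 0.1 Se, overlapping values with a difference of -0.01 ± 0.18 (SE). Within each tissue, 1422904_at, 1422905_s_at and 1435459_at ranked the arrays alike, with r between 0.84 and 0.99 over the 6 liver arrays and between 0.86 and 0.92 over the 6 lung arrays. The diet difference therefore had one sign in 4 of 4 Fmo2 probe sets in liver (0.60 to 1.47) and in 4 of 5 in lung. These probe sets are not independent, as they share each array's RNA, and 1422904_at and 1422905_s_at also come from 1 source sequence. The probe set 1422905_s_at may also cross-hybridize. Without 0.1 Se liver replicate 1 the difference of the diet differences, lung minus liver, was -0.10 (1422904_at), -0.07 (1422905_s_at) and 0.02 (1435459_at).

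**Figure D3:**
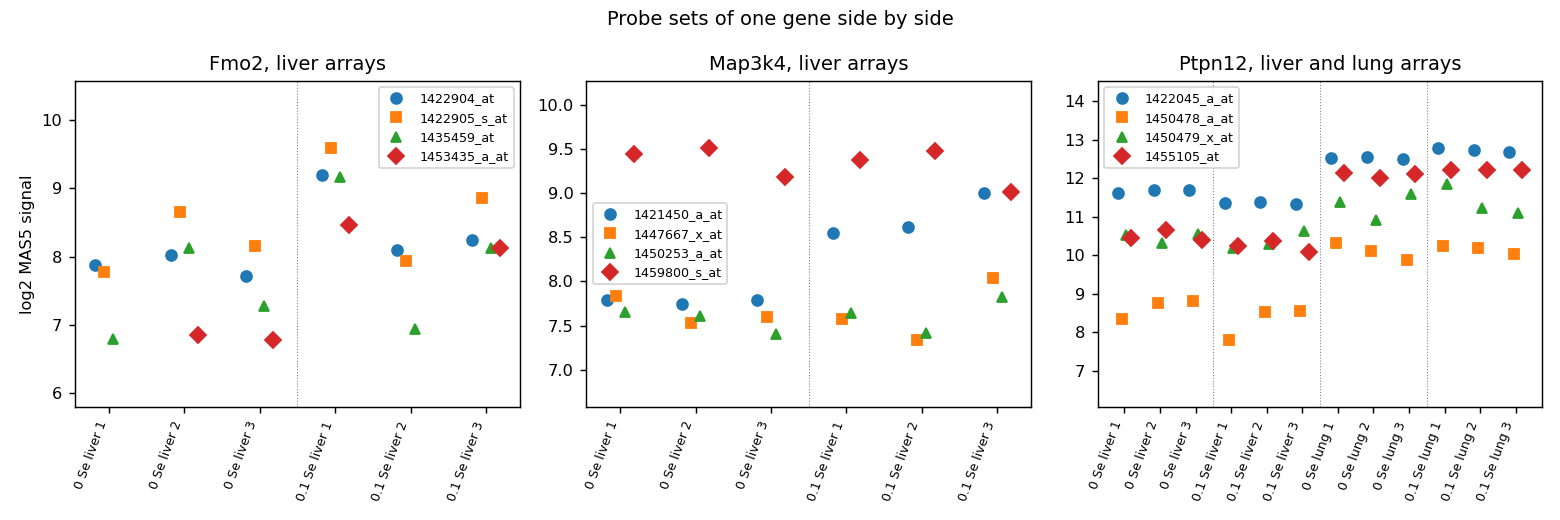
Log2 MAS5 signal (vertical axis) of the probe sets of Fmo2 and Map3k4 on the 6 liver arrays and of Ptpn12 on the 12 arrays (horizontal axis, group and replicate). Each symbol is 1 probe set, and dotted lines separate the groups. For Fmo2 each probe set is highest on 0.1 Se liver replicate 1, and for Map3k4 only 1421450_a_at steps up between the diets (7.75 to 7.79 against 8.55 to 9.00).

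Prg4 was listed on the 6 liver arrays and on 3 lung arrays, and its liver signal was higher on 0.1 Se. Its only probe set, 1449824_at, read 10.71, 10.93 and 10.81 in 0 Se liver and 11.20, 11.59 and 11.17 in 0.1 Se liver. The diets did not overlap. The means were 10.82 ± 0.11 (SD, n = 3) and 11.32 ± 0.23, and the difference was 0.50 ± 0.13 (SE), a 1.42-fold higher signal, with 558 of 16575 probe sets larger in absolute terms. In lung it was listed on 1 array of 0 Se, at 8.45, and on 2 arrays of 0.1 Se, at 6.83 and 7.40. Too few lung arrays were listed for a fit, so the absence of a lung difference was not measured. Of the 7 hepatocyte markers 6 were blank in lung, and Alb was listed on the same 3 lung arrays as Prg4, at 6.81 in 0 Se lung and at 6.70 and 7.15 in 0.1 Se lung. In liver Alb had means of 15.69 on 0 Se and 15.85 on 0.1 Se, against 10.82 and 11.32 for Prg4. The part of liver RNA in the Prg4 lung signal was not tested.

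Counted over all members, 6 of the 13 probe sets listed on the 6 liver arrays did not overlap between diets, 3 of them higher on 0.1 Se (Fmo2 1422904_at, Prg4 and Map3k4 1421450_a_at) and 3 lower (Actr1a and both Ptpn12 probe sets above). Of all probe sets listed on the 6 liver arrays, 12.2% did not overlap. In lung 4 of 14 did not overlap and were higher on 0.1 Se, against 12.9% of all probe sets in either direction. Because the genes were chosen on these arrays, nothing was read from these shares. Among all probe sets limma called 2 of 16575 in liver (0.0121%) and 20 of 21655 in lung (0.0924%) at an adjusted p under 0.05. The difference between the tissues in the diet response was called for 0 of 15112 probe sets (0%) by limma, with 931 at an unadjusted p under 0.05, so no gene of the table passed adjustment in that fit. With blanks at the lowest value of the table, 44 probe sets did. For the probe set of each gene where that difference, lung minus liver, was largest in absolute terms, it was 0.83 ± 0.14 (SE) for Actr1a, -1.18 ± 0.19 for Fmo2 1453435_a_at, 0.53 ± 0.11 for Ptpn12 1422045_a_at and -1.07 ± 0.22 for Map3k4 1421450_a_at. The Fmo2 value was -0.69 ± 0.51 with blanks at the lowest value. The other probe sets were nearer to 0 or opposite, at -0.52 to -0.44 for Fmo2 and 0.19 to 0.40 for Ptpn12. For Map3k4 they were 0.32 ± 0.25 (1447667_x_at), 0.04 ± 0.22 (1450253_a_at) and 0.02 ± 0.20 (1459800_s_at).

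The difference between the tissues themselves was tested over the 12 arrays, and limma called 81.6% of all 15112 probe sets at an adjusted p under 0.05, 7204 higher in lung and 5122 higher in liver. The median of all probe sets was 0.18 higher in lung on this scale and -0.02 after each array was centred on its median, so values near 0.2 depend on the scaling. Fmo2 had the widest gap among the members. Its 4 fitted probe sets were higher in lung by 4.83 ± 0.22 (SE, 1422905_s_at, adjusted p = 9.07e-12) to 5.78 ± 0.29 (1435459_at, adjusted p = 3.67e-11), and 1453435_a_at by 5.25 ± 0.10, 37.9-fold (adjusted p = 1.12e-14). Fmo1, the relative that was listed in both tissues at similar levels, differed by 0.34 ± 0.12 (limma adjusted p = 0.014). Fmo5, which was high in liver as Fmo1 was but far lower in lung, differed by -4.17 ± 0.11 (limma adjusted p = 2.35e-14).

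All 4 Ptpn12 probe sets were also higher in lung, by 0.93 ± 0.14 (SE, 1450479_x_at, limma adjusted p = 1.34e-05) to 1.78 ± 0.07 (1455105_at, adjusted p = 1.53e-12). Its tissue gap of 1.12 ± 0.05 on 1422045_a_at (limma adjusted p = 1.74e-11) exceeded both of its diet differences. For Map3k4 the probe sets differed, since 1459800_s_at was higher in lung by 0.79 ± 0.10 (limma adjusted p = 1.96e-06) and 1421450_a_at by 0.46 ± 0.11 (adjusted p = 0.00119). For 1421450_a_at this average rests on 0 Se liver, the group that also set the diet difference, since on 0.1 Se the mean was 8.73 in liver and 8.65 in lung. Its 1447667_x_at gave 0.44 ± 0.12 (limma adjusted p = 0.00402), or 0.24 with an adjusted p of 0.0863 after median centring. Its 1450253_a_at gave 0.12 ± 0.11 (limma adjusted p = 0.328), or -0.08 after median centring (adjusted p = 0.508). Actr1a was higher in lung by 0.33 ± 0.07 (limma adjusted p = 0.000503), which likewise rests on 1 group, 0.1 Se liver, the mean of 0 Se liver being 10.27 against 10.19 in 0 Se lung, and after median centring the gap was 0.13 with an adjusted p of 0.112. For Prg4, blank on 3 of 6 lung arrays, no size of the gap is given, but its listed lung arrays (6.83 to 8.45) lay below its lowest liver array (10.71).

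**Figure D4:**
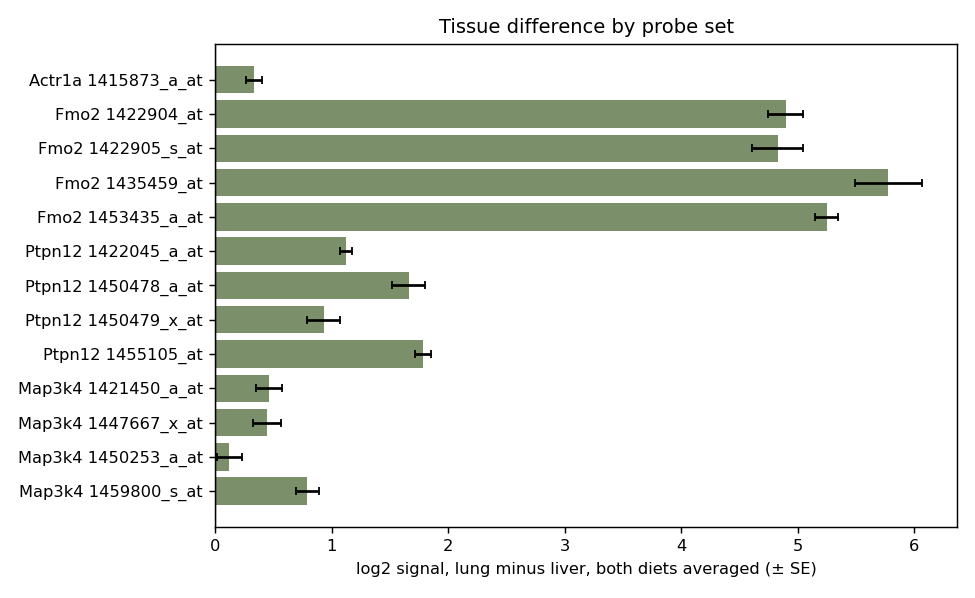
Difference of the log2 signal between lung and liver averaged over both diets (horizontal axis, lung minus liver) for the 13 probe sets fitted in both tissues (vertical axis). Bars start at 0 and error bars are the SE of the limma fit. The 4 Fmo2 bars reach 4.83 to 5.78, the Ptpn12 bars 0.93 to 1.78, and Map3k4 1450253_a_at (0.12) lies within about its SE of 0.

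No gene that is related to a member or works with it passed adjustment between diets. Of each such list limma called 0 genes at an adjusted p under 0.05 in liver and 0 in lung, and the counts below are at an unadjusted p under 0.05, which 6.65% of all probe sets reached in liver and 7.67% in lung. For Actr1a, 3 of 22 measured dynactin and dynein genes passed in liver and 1 of 24 in lung, with medians of 0.03 and -0.02. They were the dynein regulator Ndel1 (0.27 ± 0.11 SE, limma adjusted p = 0.737), the cargo adaptor Bicd2 (0.32 ± 0.14, adjusted p = 0.747) and Hook3 (-0.30 ± 0.12, adjusted p = 0.709), which links dynein to cargo. In lung it was Dynlrb2, a dynein light chain of ciliated cells, at -0.73 ± 0.21 (limma adjusted p = 0.38). The 6 ciliated cell markers moved with it, their summed log2 signal being 12.89 to 13.06 in 0 Se lung and 12.25 to 12.83 in 0.1 Se lung. Most of this sum came from Tppp3, with means of 12.44 on 0 Se and 12.17 on 0.1 Se. The median difference of the 6 markers was -0.86, and limma called 0 of them at an adjusted p under 0.05. Their part in the Dynlrb2 value was not tested. Actr1b, the closest relative of Actr1a, was not analysed here.

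Of the flavin-containing monooxygenases, 1 of 3 passed in liver and 0 of 2 in lung. Fmo5 had a liver difference of 0.50 ± 0.17 (SE, limma adjusted p = 0.635) and a lung difference of -0.23 ± 0.14. Fmo1 was level in both tissues (-0.01 ± 0.18 in liver and -0.01 ± 0.11 in lung), and Fmo4, listed in liver alone, had 0.00 ± 0.23. Of the lubricin partners and matrix genes, 0 of 8 passed in liver and 1 of 9 in lung, the collagen-binding proteoglycan Lum at -0.76 ± 0.27 (limma adjusted p = 0.526). Vtn, a liver-made matrix protein with domains like those of lubricin, had -0.01 ± 0.10 in liver and its signal was lower in lung than in liver (-6.61 ± 0.09, limma adjusted p = 3.01e-17).

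Of the PTP-PEST family and its partners, 1 of 12 passed in liver and 2 of 16 in lung, with medians of 0.18 and 0.08. Ptpn18, a phosphatase of the same PEST group, had a liver difference of 0.93 ± 0.21 (SE, limma adjusted p = 0.441), the opposite sign to Ptpn12, and 0.16 ± 0.13 in lung. In lung Ptpn22, the lymphoid member of the group, had 0.41 ± 0.15 (limma adjusted p = 0.529) and the adaptor Shc1 -0.38 ± 0.14 (adjusted p = 0.528). Of the MEKK4 pathway, 0 of 18 passed in liver and 1 of 21 in lung, the p38 kinase Mapk13 at -0.54 ± 0.17 (limma adjusted p = 0.439). Of the activators of MEKK4, Gadd45a (0.47 ± 0.33) and Gadd45g (-0.15 ± 0.50) did not pass in liver. Gadd45b could not be fitted there, being blank on the 3 arrays of 0 Se liver and listed on 2 arrays of 0.1 Se liver with a mean of 8.28, and in lung it had 0.24 ± 0.11 (limma adjusted p = 0.674). The related kinase Map3k1 had -0.41 ± 0.23 in liver (limma adjusted p = 0.809).

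Besides the ciliated cell markers, some other marker lists had summed signals that did not overlap between diets. They are the separated ones among many lists looked at in both tissues. Of all single probe sets, 12.2% did not overlap in liver and 12.9% in lung. The summed log2 signal of the 8 Kupffer cell and macrophage markers was 13.65 to 14.03 in 0 Se liver and 14.12 to 14.43 in 0.1 Se liver, with 8 of 8 listed on the 6 arrays and a median difference of 0.37. In lung the 5 neutrophil markers with a probe set summed to 10.43 to 11.72 on 0 Se and 12.13 to 14.08 on 0.1 Se, with 4 of them listed on the 6 arrays. Of these 4, Mmp9 did not rise, with means of 8.33 ± 0.57 (SD, n = 3) on 0 Se and 8.27 ± 0.36 on 0.1 Se. Limma called 0 of the Kupffer cell, macrophage and neutrophil markers at an adjusted p under 0.05. Their part in the liver differences of Actr1a, Fmo2, Prg4, Ptpn12 and Map3k4, or in the lung differences of Fmo2, Ptpn12 and Map3k4, was not tested. Of the 9 cartilage markers, a list bearing on Prg4, 2 had a probe set. Chad was listed at 7.84 to 8.29 in 0 Se lung and on 2 arrays of 0.1 Se lung, at 6.99 and 7.02, and was blank in liver. Cnmd was blank in lung and had means of 10.60 ± 0.23 (SD, n = 3) in 0 Se liver and 11.01 ± 0.47 in 0.1 Se liver, higher on 0.1 Se as Prg4 was, with arrays that overlapped between diets (10.33 to 10.76 and 10.51 to 11.44). The part of either in the Prg4 values was not tested. Hepatocyte markers overlapped between diets, at 18.19 to 18.50 on 0 Se and 18.36 to 18.51 on 0.1 Se.

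The genes with the most similar course over the arrays, after each tissue mean was taken out, were found among the 12070 to 12244 single-gene probe sets listed wherever the member was. For Actr1a they were Serbp1 (r = 0.94 over 12 arrays), Slco2a1 (0.90) and Pcf11 (0.90), and Pcf11 had a liver difference of -0.71. For Map3k4 they were Atp9a (r = 0.95 over 12 arrays), Ywhah (0.91) and Mapkapk2 (0.91), with liver differences of 0.20 to 0.36. Each of these genes had a liver difference of the same sign as its member and smaller in size. For every member the diet means were left in, so the diet difference itself enters r. Genes picked by a high r therefore tend to share the member's diet differences, and nothing was read from the shared signs. For Ptpn12 they were Slc18b1 (r = 0.91 over 12 arrays), Ubxn2a (0.89) and Heca (0.89), each with a negative difference in liver (-0.51 to -0.21) and a positive one in lung (0.11 to 0.19). For Fmo2 they were Crebrf (r = 0.97 over 10 arrays), Aida (0.96) and the fatty acid transporter Cd36 (0.94), with liver differences of 0.13 to 0.81. For Prg4 they were Rplp2 (0.96 over 9 arrays), Kdelr1 (0.94) and Abhd11 (0.91). Their liver differences were 0.12 to 0.17 against 0.50 for Prg4, whose few listed lung arrays spanned a wide 6.83 to 8.45. All these r values are the highest of many correlations over few arrays that share their RNA and scaling, so they describe likeness and carry no p.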

How the data were processed

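RNA of whole lung and liver was measured on 12 arrays in 4 groups of 3, and the diet and tissue labels placed each array. The authors computed MAS5 signals, scaled each array separately and excluded absent calls, with affy 1.36.0 in R 2.15.2 given in the submitters' processing notes. Deposited values are log2 signals from 6.64 (a signal of 100) to 16.4, used without further scaling. A blank can be an absent call or a signal under 100. There were 0 columns without a sample. Listed probe sets numbered 17235 to 17923 per liver array and 22197 to 22718 per lung array.

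The 58 control probe sets were left out. Of the other 29409, 24504 had a single gene (24434 matched to RefSeq genes by Entrez number), 660 several genes and 4245 no annotation here, and source sequences came from the same annotation.

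Probe sets with at least 2 values in each group were fitted with limma 3.58.1 in R 4.3.3 (package data.table, version 1.17.8), using lmFit and eBayes with a trend, within each tissue for the diets and over the 12 arrays for the tissue contrast and the difference of the diet differences. P-values were adjusted over all probe sets by Benjamini-Hochberg at 0.05. The scripts were tested on simulated data. The number of arrays limits the precision, as 3 against 3 arrays allow no exact two-sided p below 0.1. Members, gene lists and tests were chosen with earlier results of these data known. The text names every probe set of the members (pictured for each gene is the one with the largest absolute difference of the diet differences), the nearest relatives, up to 4 genes of each list with the smallest p, and 3 genes most like each member. List genes stood with their single-gene probe set of the highest mean.

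Alternatives were log2 of the signal plus 32, quantile normalization, centring on the median, blanks at the lowest value, a filter on the mean signal, array weights, eBayes without a trend or robust, the 12 arrays in one fit, a replicate block, the methods' t-test and leaving out each array in turn.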

Additional observations from a re-analysis of the deposited data

Results flagged for a closer look

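On 2 Ptpn12 probe sets every array of 0.1 Se lay below every array of 0 Se in liver and above it in lung. Of all probe sets listed on the 6 arrays of a tissue, 12.2% did not overlap in liver and 12.9% in lung, in either direction. The share that did so in opposite directions in liver and lung was not counted. The difference of the diet differences, lung minus liver, was 0.53 for 1422045_a_at and 0.40 for 1455105_at on the log2 scale. This difference was not tested for Ptpn12, because the gene had been picked for this pattern.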

How the results depend on the processing

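The direction of the members' diet differences in liver held under every alternative run for Actr1a (-0.82 to -0.75), the fitted Fmo2 probe sets (0.14 to 1.48), Prg4 (0.37 to 0.58), the Ptpn12 probe sets (-0.49 to -0.01) and Map3k4 1421450_a_at (0.81 to 1.04). It did not hold for Map3k4 1447667_x_at (-0.20 to 0.15), 1450253_a_at (-0.03 to 0.18) and 1459800_s_at (-0.18 to 0.05). For Fmo2 1453435_a_at the liver difference was 1.25 with log2 of the signal plus 32 and 0.98 with blanks at the lowest value, and the difference of the diet differences was -0.96 and -0.69. Median centring reduced the tissue difference of Actr1a to 0.13 and turned that of Map3k4 1450253_a_at to -0.08. The causes were not tested. In lung the differences of Ptpn12 1422045_a_at (0.19 to 0.24) and 1455105_at (0.08 to 0.15) kept their sign, while those of 1450478_a_at (-0.07 to 0.15) and 1450479_x_at (-0.14 to 0.25) did not, the former also under array weights (-0.02). The median of the flavin-containing monooxygenases in liver was 0.25 under the filter on the mean signal, which left fewer genes. Leaving out each array in turn gave medians of 0.02 to 0.19 for the PTP-PEST list in liver, and of -0.01 to 0.09 in liver and -0.03 to 0.02 in lung for the MEKK4 list. Fmo2 1453435_a_at could not be fitted in liver without any of its 4 listed arrays. Over all probe sets, calls ranged from 0 to 13 in liver (2 as reported), 0 to 75 in lung (20), 0 to 44 for the difference of the diet differences (0, with 44 when blanks took the lowest value) and 9526 to 19731 between tissues (12326). The methods' t-test called 985 probe sets in liver and 1412 in lung at its unadjusted threshold and 0 in either after Benjamini-Hochberg. Quantile normalization gave 8692 higher in lung and 3957 higher in liver, and median centring 6005 and 6199. Whether replicate numbers pair the samples could not be decided. Deviations of same-numbered arrays correlated between -0.188 and 0.147 over 13376 probe sets, and arrays with different numbers were not compared. A pairing of liver and lung arrays by mouse was not part of any fit. With the replicate number as a block within each tissue, calls were 0 in liver, 56 in lung and 0 for the difference of the diet differences. Fmo2 1453435_a_at then had -1.04 for that difference. With 3 arrays per group, some small differences in low signals were within the spread, such as Map3k4 1450253_a_at in liver (0.07 ± 0.19 SE). Others were not, such as Map3k4 1447667_x_at in lung (0.32 ± 0.14), where the diets did not overlap.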
